A study of Mus musculus with 4 samples.

Results

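HOX genes encode homeodomain transcription factors that sit side by side in 4 clusters of the mouse genome, Hoxa, Hoxb, Hoxc and Hoxd. All protein-coding genes whose symbol is Hoxa, Hoxb, Hoxc or Hoxd followed by a number were taken, which gave 39 of 21883 protein-coding genes (autosomes 1 to 19 with X and Y). Hoxa holds 11 of them, Hoxb 10, Hoxc 9 and Hoxd 9. Within this set, members were taken by symbol alone, but the set was chosen with earlier results of these data known. The question was where DNA bound by tyrosine-phosphorylated STAT3 lay relative to these genes.

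The cells were oligodendrocyte progenitor cells, the dividing precursors of the cells that make myelin, taken from the cortex of C57BL/6 mice as a primary culture. They were grown with PDGF-AA at 10 ng/ml and bFGF at 20 ng/ml, and every sample received the cytokine CNTF at 100 ng/ml for 15 min, so no untreated control was part of the design. Chromatin was precipitated with an antibody against phosphorylated STAT3 in 2 libraries, replicates 1 and 2, and 2 inputs were not analysed here. Lysed cells were pooled before sonication, per the labels, so differences between the replicates may be technical. The identity of the cells could not be checked on marker genes, since the files hold peaks and no expression.

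CNTF signals through receptors that activate JAK kinases, which phosphorylate STAT3; the phosphorylated factor moves to the nucleus and binds DNA, often at palindromes of the form TTCNNNGAA. HOX proteins set position along the body axis from the hindbrain to the tail and in the limbs. Paralogs in different clusters share a number, and genes with low numbers are used further forward than genes with high numbers. The cortex lies in front of the HOX domains, and in tissues that do not use them the clusters are known as targets of Polycomb repression, which Trithorax-side proteins counteract.

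No reproducible region was listed for any HOX gene. The deposited table of regions found in both replicates holds 12925 regions, kept at an irreproducible discovery rate (IDR, the expected share of inconsistent regions) of at most 0.05. Of the 39 HOX genes, 0 had a region midpoint within 5 kb of a listed transcription start, beside 3957 of 21883 protein-coding genes (18.1%). Widening the window to 25 kb again gave 0 of 39, beside 34.3% of protein-coding genes. None of the 4 cluster intervals held a region, and none did with 25 kb added on each side.

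Single-replicate peaks were also few. The replicate 1 list holds 42189 peaks, and 2 of them fell in the clusters, 1 in Hoxb and 1 in Hoxc. The replicate 2 list holds 26649 peaks, and 1 of them fell in a cluster, in Hoxc. Counted by gene, 3 of 39 HOX genes (7.69%) had a replicate 1 peak summit within 5 kb of either end of the gene, namely Hoxb3, Hoxc8 and Hoxc9, beside 49.8% of protein-coding genes. In replicate 2 the count was 2 of 39 (5.13%), Hoxc8 and Hoxc9, beside 34.8% of protein-coding genes. Hoxc8 and Hoxc9 were counted for the same peak, which lies between them.

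MicroRNAs are processed from short hairpins inside the clusters and are shown here because they share the intervals with the protein-coding members. One mature arm per hairpin is shown, from RefSeq with build GRCm38.p6, and the opposite arms are left out. The arms shown fall into 3 groups by seed, the bases 2 to 8 given in capitals, through which a microRNA pairs with its targets.
miR-10a-5p: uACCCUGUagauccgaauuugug
miR-10b-5p: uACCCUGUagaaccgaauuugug
miR-196a-5p: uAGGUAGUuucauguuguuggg
miR-196b-5p: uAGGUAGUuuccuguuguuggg
miR-615-3p: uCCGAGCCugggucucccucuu
The hairpin gene closest to any peak was Mir10a in the Hoxb cluster, 5.28 kb from a replicate 1 peak, while its nearest replicate 2 peak was 241 kb away. Mir196a-2 lay 14.0 kb and Mir615 27.2 kb from the replicate 1 peak in Hoxc, and 14.0 kb and 27.3 kb from the replicate 2 peak there. For Mir196a-1, the second gene of miR-196a, in Hoxb, the nearest replicate 1 peak was 46.4 kb away. Mir10b in Hoxd and Mir196b in Hoxa were 147 kb and 111 kb from theirs. To the nearest reproducible region the 6 hairpin genes ranged from 70.7 kb for Mir615 to 274 kb for Mir10b.

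The clusters together cover 492 kb. Hoxa spans 106 kb on chromosome 6, Hoxb 174 kb (chr11:96194316-96368254), Hoxc 116 kb (chr15:102921131-103036856) and Hoxd 96.9 kb (chr2:74668225-74765142), in GRCm38 coordinates. At the rate of the whole list, 0.509 regions per 100 kb, intervals of this total length would hold 2.5 regions. The same sum gives 7.82 peaks for replicate 1, where 2 were listed, and 4.92 for replicate 2, where 1 was listed. These are rates over the span of the chromosomes that the lists cover, not a test, and peaks are unevenly spread over the genome. Hoxc had 2 of the 3 listed peaks, Hoxb 1, and Hoxa and Hoxd none.

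HOX genes are short and tightly packed, so they were also set beside other gene-dense places. Among protein-coding genes with at least 5 protein-coding neighbours within 50 kb, 53.8% of 2964 had a replicate 1 peak within 5 kb of either end. Leaving out the olfactory receptor (Olfr) and vomeronasal receptor (Vmn) genes, which form large clusters of their own, the share was 59.7% of 2667. Of the 31 HOX genes with as many neighbours, 3 had such a peak (9.68%).

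**Figure D1:**
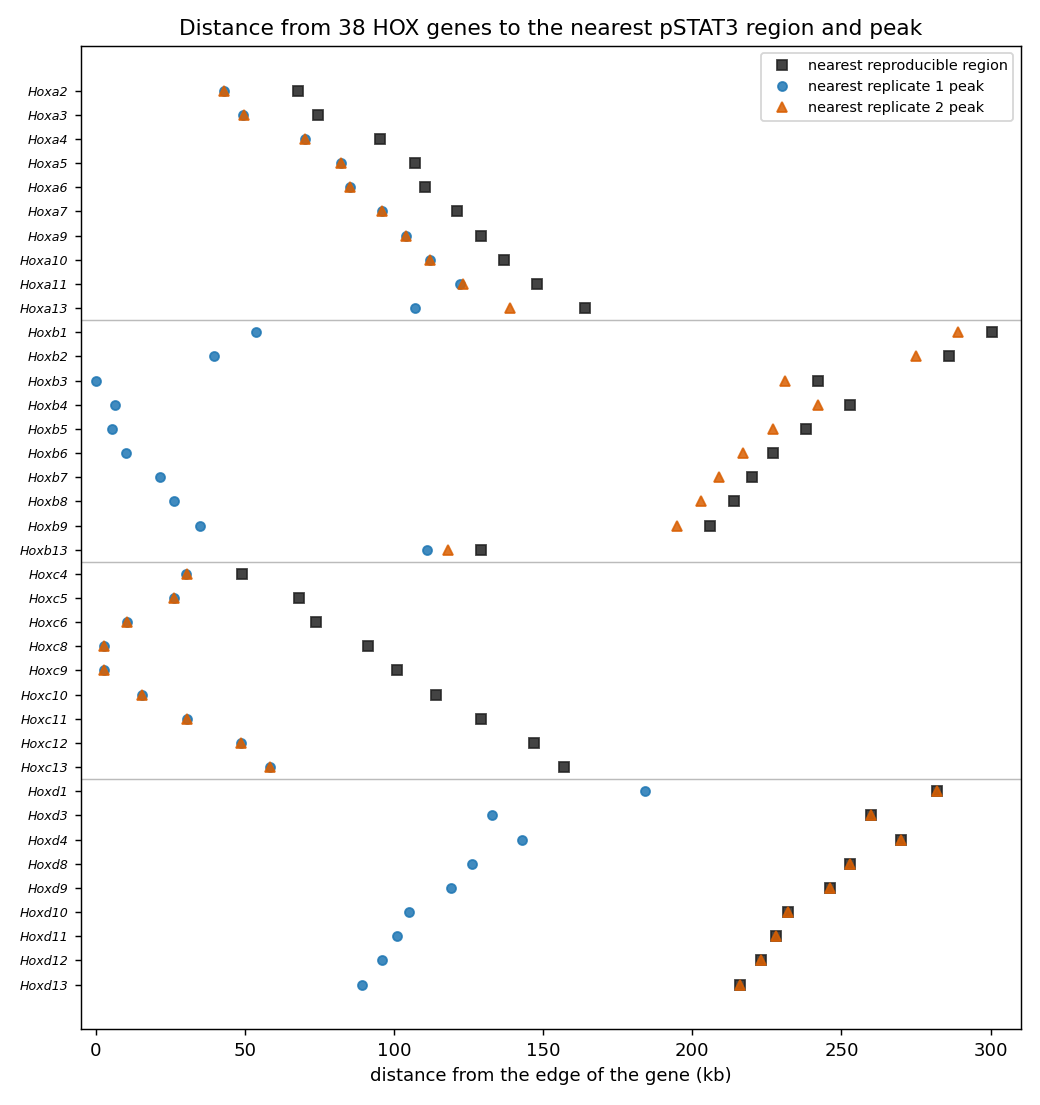
Distance in kb from the edge of each of 38 HOX genes to the nearest reproducible region (squares), replicate 1 peak (circles) and replicate 2 peak (triangles), on a linear axis with the clusters set apart by grey lines. Hoxb3 is the only gene with a peak inside it, and all squares lie between 48.9 and 300.3 kb.

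Distances to the nearest region were long in all 4 clusters. Measured from the edge of a gene, they ran from 48.9 kb for Hoxc4 to 300.3 kb for Hoxb1, with a median of 157 kb over the 39 genes. The median over all protein-coding genes was 40.8 kb, and it was 51.4 kb over the 16377 that are no longer than the longest HOX gene. Hoxc4 was the 1 HOX gene of 39 (2.56%) with a region within 50 kb, beside 53.7% of protein-coding genes. The genes of a cluster share their nearest region, so these distances are not 39 separate observations.

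By cluster, the medians to the nearest region were 101 kb in Hoxc (48.9 to 157 kb), 110.3 kb in Hoxa (up to 164 kb), 232 kb in Hoxb (129 to 300.3 kb) and 246 kb in Hoxd (216 to 282 kb). All Hoxa and Hoxc genes were closer to a region than any Hoxd gene. Grouped by paralog number, the medians were 248 kb for the 12 genes of groups 1 to 4, which pattern the hindbrain and neck, 121 kb for the 11 of groups 5 to 8, and 152 kb for the 16 of groups 9 to 13, which pattern the lower trunk and limbs. Those 3 ranges overlapped, from 48.9 to 300.3 kb, from 68.3 to 253 kb and from 101 to 246 kb. The bands draw unevenly on the clusters, and their order differed by cluster. Groups 1 to 4 were nearest to a region in Hoxa and Hoxc and farthest in Hoxb and Hoxd.

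The replicates differed most at Hoxb. To the nearest replicate 1 peak, the median was 23.9 kb in Hoxb, 26.3 kb in Hoxc, 85.3 kb in Hoxa and 119 kb in Hoxd. To the nearest replicate 2 peak it was 222 kb in Hoxb, 26.4 kb in Hoxc, 85.4 kb in Hoxa and 246 kb in Hoxd. The peaks nearest to the Hoxc genes and to most Hoxa genes were called in both lists, and those medians were almost equal. The replicate 1 peaks nearest to the Hoxb and Hoxd genes, Hoxd1 included, had no overlapping replicate 2 peak. Over all 39 genes the medians were 53.9 kb and 123 kb, and over protein-coding genes of at most the longest HOX length they were 5.41 kb and 19 kb.

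**Figure D2:**
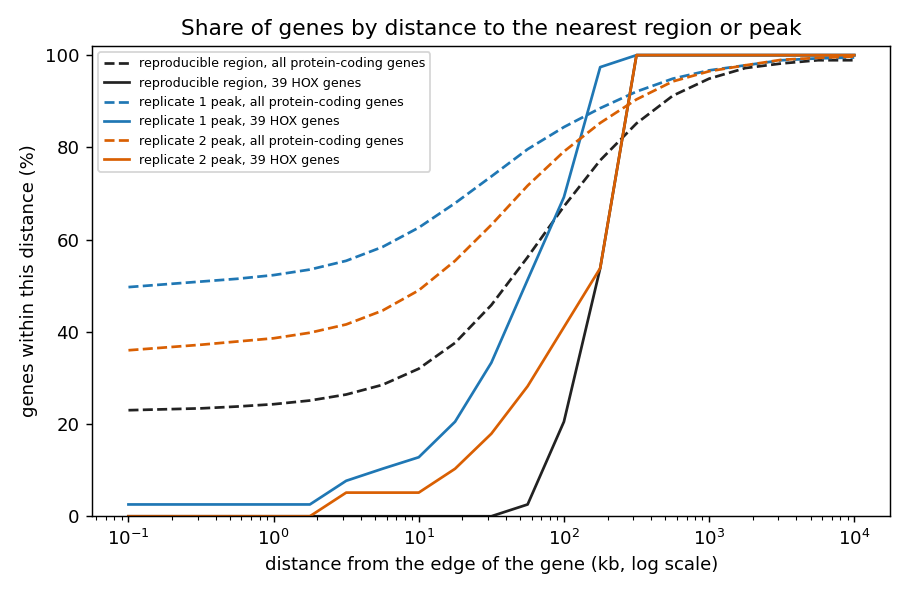
Share of genes in percent whose nearest reproducible region (black), replicate 1 peak (blue) or replicate 2 peak (orange) lies within the distance on the log axis in kb, for the 39 HOX genes (solid) and all protein-coding genes (dashed). Up to about 100 kb the solid lines lie below the dashed lines of their colour, and all 3 solid lines reach 100% beyond the longest HOX distance to a region, 300.3 kb.

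The peak between Hoxc9 and Hoxc8 was the only one in a HOX cluster that both lists contain. Hoxc9 (NCBI gene 15427) and Hoxc8 (15426) encode factors that pattern parts of the spine and its motor neurons. Replicate 1 gave a peak of 323 bp (chr15:102987385-102987707) with 27 fragments at its summit and a fold enrichment over the local background of 4.9. Replicate 2 gave one of 254 bp (chr15:102987387-102987640) with 13 fragments and a fold enrichment of 3.58. The replicate 2 peak lies wholly inside the replicate 1 peak, and the summits are 39 bp apart. No RefSeq gene of the table used here covers the position, which is 3.04 kb from the nearer end of Hoxc9 and 3.05 kb from that of Hoxc8.

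The Hoxc pair was weak and outside the table of reproducible regions. In replicate 1 the peak had a −log10 p of 12.6 and a −log10 q of 9.86, and 46.7% of that list's peaks had a higher fold enrichment. In replicate 2 it had a −log10 p of 5.62 and a −log10 q of 2.87, and 77.4% of the list was stronger. Over both lists, 24579 pairs of peaks overlap, and 13514 of them (55.0%) belong to a region of the table. By the lower of its fold enrichments, 78.5% of overlapping pairs were stronger than the Hoxc pair. The median of that lower value was 7.33 for pairs in the table and 3.74 for pairs outside it, so the Hoxc pair at 3.58 was near the middle of those outside.

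**Figure D3:**
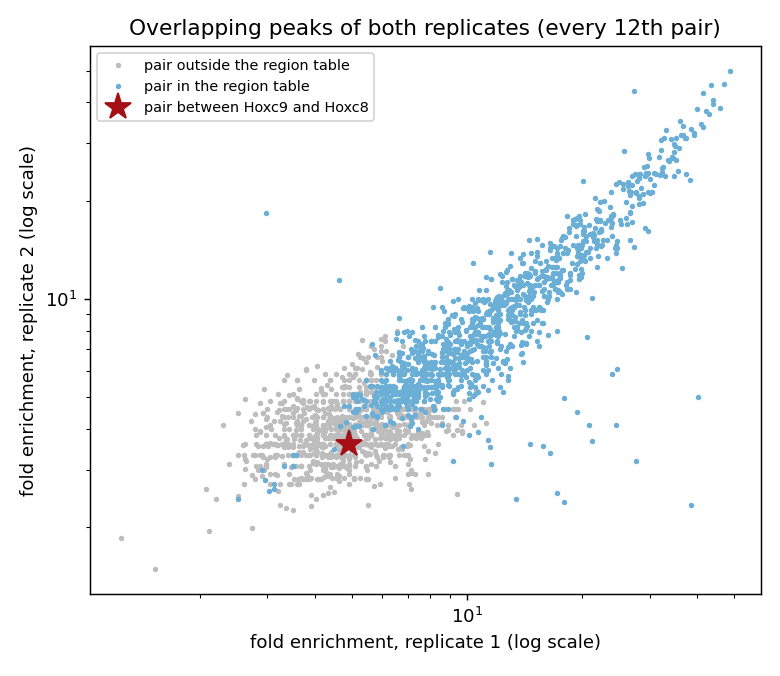
Fold enrichment in replicate 1 and replicate 2, both on log axes, of every 12th pair of overlapping peaks, in blue for pairs that belong to a reproducible region and in grey for pairs that do not, with the pair between Hoxc9 and Hoxc8 as a star. The star at 4.9 and 3.58 lies among the grey points, at the edge of the blue ones.

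The Hoxb peak was listed in replicate 1 alone. It is 223 bp long (chr11:96311667-96311889) and lies inside the interval of Hoxb3 (NCBI gene 15410), 4676 bp from its low-coordinate end, 5.66 kb past Hoxb5 and 6.49 kb before Hoxb4, which the 40830 bp of the RefSeq interval of Hoxb3 also span. Hoxb3, Hoxb4 and Hoxb5 are used from the hindbrain and upper spinal cord backwards. The peak had 19 fragments at its summit, a fold enrichment of 3.5, a −log10 p of 6.85 and a −log10 q of 4.35. Of the replicate 1 list, 76.4% of peaks were stronger. No replicate 2 peak overlapped it, and the nearest one to Hoxb3 was 231 kb from the gene. Whether the peak is in an exon or an intron was not determined here.

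The pileups set a floor on what the lists can show. The files analysed give no number of reads per library, and no interval is attached to these values. Both peaks in replicate 1 sat on the lowest local background of that list, 4.72 fragments, and the Hoxc peak of replicate 2 on the lowest of its own, 2.91 fragments, as did 36.6% and 39.7% of all peaks in the lists of replicates 1 and 2. At those backgrounds the weakest listed peaks had 13 fragments in replicate 1 and 9 in replicate 2, and no weaker pileup at that background is listed. Whether depth bears on the low counts in the clusters was not tested. Medians over whole lists were 30 and 20 fragments.

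Gaps without a region were long around the clusters and rich in genes. Because no cluster held a region, each gap had to span its cluster and hold its HOX genes. The shares below therefore partly restate that absence and are not a separate result. The Hoxa cluster lay in a gap of 708 kb between neighbouring regions that holds 14 protein-coding genes, its own 11 with Evx1, Hibadh and Tax1bp1. Hoxb lay in one of 759 kb with 16 genes, Hoxd in one of 595 kb with 12, and Hoxc in one of 352 kb that holds only its 9 HOX genes. Of the 12904 gaps between regions, with a median of 69.8 kb, the share at least as long was 5.54% for Hoxa, 5.06% for Hoxb, 6.81% for Hoxd and 13.4% for Hoxc. The share with at least as many genes was 1.19%, 0.976%, 1.53% and 2.63% in the same order. HOX gaps were not the richest in genes: the one with the most, on chromosome 2, holds 225, of which 222 are olfactory receptor genes.

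Between peaks of replicate 1 alone, the gap over Hoxa was 248 kb with 12 genes and that over Hoxd 436 kb with 11. As many genes as in these were held by 0.23% and 0.266% of the 42110 gaps of that list, whose median was 20.3 kb. Neither cluster held a replicate 1 peak, so both gaps had to hold at least the HOX genes of the cluster. The peaks in Hoxb and Hoxc split those clusters, into gaps of 229 and 402 kb and of 240.1 and 98.0 kb. In replicate 2 the Hoxb cluster lay whole in a gap of 701 kb with 13 genes.

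**Figure D4:**
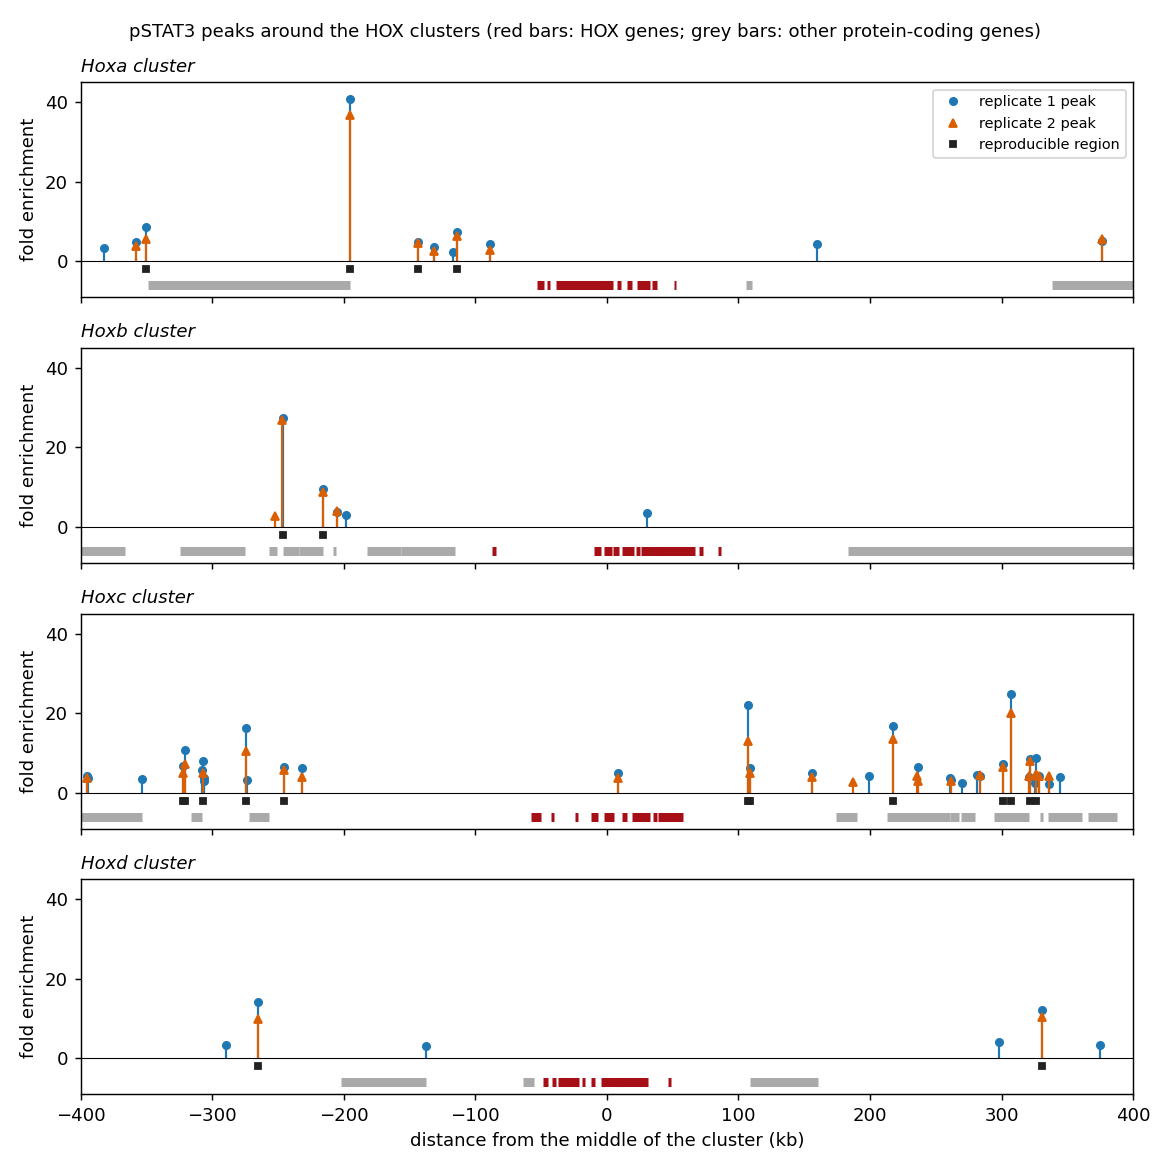
Fold enrichment of replicate 1 peaks (blue circles) and replicate 2 peaks (orange triangles) against the distance in kb from the middle of each cluster, with reproducible regions as black squares below the line, HOX genes as red bars and other protein-coding genes as grey bars. Within the clusters stand only the replicate 1 peak of 3.5-fold in Hoxb, over a red bar, and the Hoxc pair, between red bars, while peaks of up to 40.9-fold stand beyond the clusters.

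Outside the clusters, the first 100 kb already held regions at about the rate of the whole table, and the third 100 kb held more. Counting both sides of all 4 clusters, there were 4 regions in the first 100 kb, 5 in the next and 11 in the third, or 0.5, 0.625 and 1.38 per 100 kb, beside 0.509 over the whole table. For replicate 1 peaks the rates were 1.12, 1.38 and 3.5 per 100 kb beside 1.59, and for replicate 2 peaks 0.875, 1.38 and 2.0 beside 1.0. Of the 20 regions within 300 kb, 12 belonged to the surroundings of Hoxc, 4 to Hoxa, 2 to Hoxb and 2 to Hoxd, so the rise with distance rests largely on Hoxc.

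Around Hoxa, none of the 4 regions lay beyond Hoxa13. The strongest, at the start of Skap2, a gene for an adaptor protein of immune cells, was 142 kb from the cluster (chr6:52012291-52013289). It had 274 and 160 fragments and fold enrichments of 40.9 in replicate 1 and 36.9 in replicate 2, and only 0.743% of all regions were stronger. Another (chr6:52093917-52094523) had fold enrichments of 7.44 and 6.25 and lay 8.43 kb from the noncoding gene Halr1. Within 300 kb beyond Hoxa13, 1 peak was listed, in replicate 1, with a fold enrichment of 4.24 at 107 kb.

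Hoxb had both of its regions on one side, beyond Hoxb13. They were at Snf8, 159 kb away, with fold enrichments of 27.5 and 26.8, and in Ube2z, 129 kb away, with 9.49 and 8.69. Beyond Hoxb1, neither list held a peak within 300 kb. Hoxc had 7 regions beyond Hoxc4 and 5 beyond Hoxc13. The nearest of all to any HOX gene was 48.9 kb from Hoxc4 (chr15:103085712-103086549), with 130 and 51 fragments and fold enrichments of 22.1 and 12.9. Hoxd had 1 region on each side, 216 kb beyond Hoxd13 with fold enrichments of 14.3 and 9.98, and 282 kb beyond Hoxd1 with 12.2 and 10.5.

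Genes that work with the HOX genes or control them were examined for regions within 5 kb of a listed start, from lists chosen by function. TALE-class homeodomain proteins, some of which bind DNA together with HOX proteins, had a region at 6 of 11 genes (54.5%), beside the 18.1% of all protein-coding genes. Meis2 had the strongest, with fold enrichments of 38.4 and 32.6, centred at -3.55 kb from a start, that is, upstream of it. Pknox2 followed with 13.3 and 11.3, Pbx4 with 13 and 8.48 and Tgif2 with 8.77 and 6.5.

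Polycomb genes, whose products keep HOX clusters silent, had a region at 4 of 16 (25.0%, beside the 18.1% of all protein-coding genes). Among them were Phc1 with fold enrichments of 34.6 and 29.4, Ezh2, the histone H3 lysine methyltransferase of the complex, with 16.4 and 14.3, and Pcgf2 with 6.36 and 4.74. Trithorax-side genes, which keep HOX genes active, had one at 5 of 10 (50%). Kdm6b, a demethylase that removes the Polycomb mark, had 14.2 and 10.5, the related Kdm6a 10.3 and 7.42, Kmt2a, a methyltransferase of active HOX promoters, 9.97 and 7.94, and Rbbp5 6.95 and 6.07. CDX factors and the retinoic acid pathway, which switch HOX genes on in the embryo, had one at 3 of 15 (20.0%), near that share of all genes: the receptors Rxrb with 12.4 and 8.7, Rarg with 7.87 and 6.66 and Rara with 9.97 and 6.14. None of the 3 Cdx genes had one.

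Homeobox genes outside the clusters were taken as a pair of lists. Of 33 dispersed homeobox genes of the forebrain, 10 had a region within 5 kb (30.3%), beside 18.1% of all protein-coding genes. Among them were Zeb2 with fold enrichments of 27.3 and 22.3, Pou3f3 with 23.1 and 16.6, Gsx2 with 17.7 and 15.4 and Otx1 with 13 and 13.8. Of 28 dispersed homeobox genes known mainly from other tissues, 0 had a region within 5 kb, as for the 39 HOX genes. Within 25 kb the latter list had 3 of 28 (10.7%), the forebrain list 14 of 33 (42.4%) and the HOX genes 0 of 39, beside 34.3% of all protein-coding genes. By replicate 1 peaks near either end, the list of other tissues had 4 of 28 (14.3%), the forebrain list 17 of 33 (51.5%) and the HOX genes 3 of 39, beside 49.8% of all. By replicate 2 peaks the counts were 6 of 28 (21.4%), 12 of 33 (36.4%) and 2 of 39, beside 34.8% of all. For the list of other tissues, the median distance from gene to region was 85.2 kb, beside 157 kb for the HOX genes and 31.2 kb for the forebrain list. The low counts were thus not limited to HOX genes, and differences between the lists were not tested.

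Of 16 noncoding genes of the clusters, the 6 hairpin genes included, 0 had a region within 5 kb, beside 18.1% of protein-coding genes. Within 25 kb the 1 exception was Halr1 (6.25%, beside 34.3% of protein-coding genes). No share over all noncoding genes was taken. These genes lie in or beside cluster intervals that held no region, so their counts largely restate that absence. Of 16 protein-coding genes that flank the clusters, 3 had a region within 5 kb (18.8%), about the share of all genes: Skap2, Snx10 with fold enrichments of 20.5 and 12.5, and Atp5g2 with 8.03 and 4.86.

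**Figure D5:**
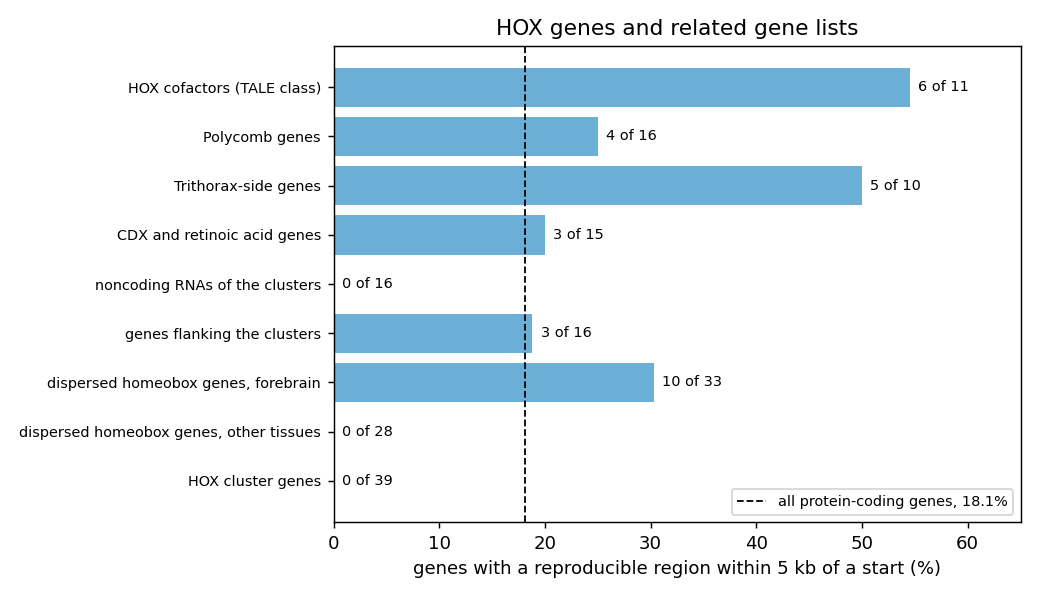
Percent of the genes of each list with a reproducible region midpoint within 5 kb of a listed transcription start, with the counts beside the bars and the share of all protein-coding genes, 18.1%, as a dashed line. HOX genes, the noncoding RNAs of the clusters and the dispersed homeobox genes of other tissues stand at 0, and the TALE-class genes are highest at 54.5%.

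Promoter sequences were searched for the STAT palindrome, from 250 bases before a start to 50 after it. The RefSeq table holds 24 promoters of 22 HOX genes. TTCNNNGAA, which reads the same on both strands, was found in 1 of the 24 (4.17%), that of Hoxd4, and in 1636 of 21262 protein-coding promoters (7.69%). The longer form TTCCNGGAA, a part of the first pattern, was in 0 of 24 and in 249 of all (1.17%). Among the 1517 promoters with a region midpoint within 250 bp of the start, 258 held the shorter form (17.0%) and 107 the longer (7.05%). The Hoxd4 match is shown with that of Phc1, the Polycomb gene whose match lies inside its region, with the pattern in capitals.
Hoxd4: ttaaacagctTTCTCTGAAaagatgcaag
Phc1: cgagcccctaTTCCCAGAAgctgcagaaa
The Hoxd4 stretch (chr2:74721775-74721803, plus strand, GRCm38.p6) has its match at base -193 from the transcription start, and the nearest region was 269.8 kb away and the nearest replicate 1 peak 143 kb. That of Phc1 (chr6:122340267-122340295, minus strand) has its match at base -58, under the region of 34.6-fold and 29.4-fold. Letters that match in a promoter are not a measured site, and a promoter without them can still be bound. The Skap2 promoter, overlapped by one of the strongest regions, held no match.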

How the data were processed

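CASAVA 1.8, Bowtie2 and MACS2 are the tools named, and GRCm38.p3 the build, per the submitters' processing notes; options are not stated there. For each ChIP library the authors deposited a peak list, and for both together a table of reproducible regions. In the peak lists the pileup signal counts fragments at the summit and the fold enrichment is a ratio to the local background, per the file headers. Headers of the −log10 p and −log10 q columns are damaged in the deposited lists, so both were identified from their values. The deposited region table gives the IDR under an adjusted p-value heading, and its columns headed fold enrichment and pileup repeat a mean −log10 p score and were not used as folds. A region was given the highest fold of the overlapping peaks of each replicate. All scores and folds are the authors' own values per peak.

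Python 3.11.15, numpy 2.4.6, pandas 2.3.3 and matplotlib 3.10.9 were used. Regions were joined to genes through the starts in the authors' table, and distances were taken from RefSeq gene intervals (GRCm38.p6, a later patch of the same assembly), 1-based, which carry no exons. Peaks overlapped where they shared at least 1 bp. Interval joins were tested on simulated data. The members and lists were chosen with earlier results of these data known, so no list was tested. A few items are not reported here. All 39 HOX genes enter the counts; of each list, up to 4 members with the highest lower fold are given with values, and remaining members named without values were chosen after these were seen. Alternatives were windows of 1 and 25 kb, an IDR of 0.01, a −log10 q of at least 10, 25 kb added to each cluster, stricter overlap, equal numbers of strongest peaks, regions without the weak end of the table, and each replicate alone. A distance of 50 kb from the gene edge, the gene-dense and length-limited backgrounds and the promoter comparison were added after the data were seen.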

Additional observations from a re-analysis of the deposited data

How the results depend on the processing

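The count of HOX genes with a reproducible region within 5 kb was 0, and also 0 with a window of 25 kb. A window of 1 kb, an IDR of at most 0.01 and dropping the weak end of the table can only lower a count. With these the count of 0 was fixed in advance. With single-replicate peaks at either end of a gene in place of regions it was 2 to 3, leaving out replicate 1 and replicate 2, and within 50 kb of the gene edge, chosen after seeing the data, it was 1. Cluster loci with a peak numbered 2, also with 25 kb added on each side; leaving out a replicate gave 1 to 2, equal numbers of strongest peaks gave 1 and a −log10 q of at least 10 gave 0. The lower fold enrichment of the Hoxc pair, 3.58, was 3.58 to 4.9 from single replicates; its pileups were 27 and 13, and the stricter −log10 q left no HOX peak to give a value. Its overlap held with at least 50% of each peak and with summits within 100 bp. For the related lists, 18 of 24 alternative counts stayed within 1.5 times, and the 6 that moved were all larger, with the 25 kb window. No paired analysis was possible because only the ChIP group was analysed here, the inputs with the same numbers were not, and no result comes from a test. Input coverage and mappability of the clusters were not used here, and without untreated cells binding before CNTF cannot be told apart from binding after it.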
